A study of Mus musculus with 9 samples.

Results

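Lcn2, Saa3, C3, Hp, Serpina3n, Cp, Steap4, Il6, Il1rl1 and Ptgs2 were examined, 10 of the 23337 genes in the table. They are genes known from the literature as C/EBP-dependent acute-phase or inflammatory genes that fibroblasts can express, and the rule names them by this knowledge rather than by a measured value, although earlier results of these data were known when they were chosen. RNA was sequenced from immortalised mouse embryonic fibroblasts (MEFs) on a mixed C57BL/6 and 129 background that lack Cebpb, so all 3 groups share the knockout. The EV group had been stably transfected with the empty vector, the LAP group with rat C/EBPβ-LAP and the LIP group with rat C/EBPβ-LIP, and each was kept under Zeocin selection. Each group had 3 libraries, numbered 1 to 3 in the labels, and it was not stated whether these came from separate cultures or clones. P-values therefore measure the spread between these libraries, which may be technical and which the fits pool in part over all genes.

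The acute phase is the rapid change in secreted proteins that follows infection or injury, driven mainly by interleukin-1 and interleukin-6. C/EBPβ was first described as a nuclear factor for Il6 expression and as an activator of acute-phase genes, and it often acts beside NF-kB, STAT and AP-1 factors on the same promoters. LAP is the long isoform with the transactivation domains, and LIP is the short isoform made from the same mRNA, which keeps the DNA-binding and dimerisation region and is known mostly as a competitor of LAP.

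The authors deposited unnormalised read counts per gene, with totals of 24839139 to 33522082 per library. Levels are given below as counts and as CPM, that is counts scaled to a common library size with TMM over the 9 libraries. A floor of 3 counts corresponded to 0.0879 to 0.122 CPM, and this covers counting error only. Of 8 fibroblast markers, 7 were above the floor in every library and Pdgfrb reached it in a LIP library. Their summed level was 33319 to 37975 CPM in EV, 24564 to 41291 in LAP and 14523 to 28763 in LIP, so that each LIP library lay below each EV library. Among single markers Col1a1, Col1a2, Pdgfra and Pdgfrb followed this sum, while Col3a1, Thy1, Vim and Fn1 overlapped between LIP and EV. Leukocyte markers summed to 6.49 to 11.3 CPM, with Ptprc and Itgam at 0 counts in every library, hepatocyte markers to at most 0.555 CPM and endothelial markers to 1.54 to 3.64 CPM. Epithelial markers, nearly all of it Krt8, summed to 402 to 481 CPM in EV, 389 to 742 in LAP and 505 to 797 in LIP, so that each LIP library lay above each EV library. Krt18 followed this sum and Epcam and Krt5 overlapped. Cdh1 went the other way, at 2.64 to 3.69 CPM in EV and 0.786 to 2.45 in LIP. In bulk RNA, fewer cells that express a gene and less of its RNA per cell cannot be told apart. Endogenous Cebpb was listed at 684 to 1077 counts, but a knockout allele can still be transcribed and the plasmids carry the rat sequence, so these counts check neither.

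Promoter sequences were examined because the genes are grouped by a shared regulator, although no binding was measured. RefSeq promoter windows on GRCm38.p6, from 250 bases before to 50 after the annotated start, were at hand for 9 of the 10 genes, in 11 windows, and Hp is named without a sequence. The C/EBP half-site pair TTNNGCAA was found on 1 of the strands for 8 of these 9 genes, in 8 of their 11 windows, and in 10.8% of all 32851 windows. A match is a description of letters and not a binding site. The stretches around the match, written 5′ to 3′ on the gene's strand with the matched letters in capitals, are given for the 7 genes in which the stretch lies outside an annotated UTR.
Lcn2, chr2:32387922-32387981, minus strand, 216 bases upstream: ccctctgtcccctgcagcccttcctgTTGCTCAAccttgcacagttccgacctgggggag
Saa3, chr7:46715742-46715801, minus strand, 99 bases upstream: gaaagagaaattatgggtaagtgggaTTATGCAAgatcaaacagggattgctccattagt
C3, chr17:57228148-57228207, minus strand, 45 bases upstream: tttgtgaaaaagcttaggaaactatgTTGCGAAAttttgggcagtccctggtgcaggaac
Steap4, chr5:7960359-7960418, plus strand, 87 bases upstream: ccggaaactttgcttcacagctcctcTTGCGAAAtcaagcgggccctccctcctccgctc
Il6, chr5:30012960-30013019, plus strand, 128 bases upstream: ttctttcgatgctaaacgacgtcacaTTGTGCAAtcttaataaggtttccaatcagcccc
Il1rl1, chr1:40429510-40429569, plus strand, 34 bases upstream: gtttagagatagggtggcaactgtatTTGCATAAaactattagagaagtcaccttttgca
Ptgs2, chr1:150099936-150099995, plus strand, 69 bases upstream: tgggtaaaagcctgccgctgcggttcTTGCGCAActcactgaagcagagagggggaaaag

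The same 8 letters, TTGCGAAA, stood 45 bases before the start of C3 and 87 bases before that of Steap4. The Lcn2 stretch also lies in a coding exon of a longer GENCODE transcript, and the Ptgs2 stretch overlaps an exon of the antisense RNA Ptgs2os. The match of Cp lay 70 bases before the second of its starts, within the UTR of its other transcripts, and Serpina3n held none. Il6 and Steap4 also held matches to the motifs of other acute-phase regulators, and their bases before the start are shown with the C/EBP match and these others in capitals.
Il6, chr5:30012864-30013113, plus strand, AP-1, C/EBP and NF-kB in this order: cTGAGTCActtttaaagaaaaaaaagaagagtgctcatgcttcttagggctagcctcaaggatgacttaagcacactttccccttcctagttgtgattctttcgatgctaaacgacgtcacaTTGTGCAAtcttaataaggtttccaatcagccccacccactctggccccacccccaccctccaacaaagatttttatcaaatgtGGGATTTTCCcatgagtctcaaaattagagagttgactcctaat
Steap4, chr5:7960222-7960471, plus strand, NF-kB, STAT and C/EBP in this order: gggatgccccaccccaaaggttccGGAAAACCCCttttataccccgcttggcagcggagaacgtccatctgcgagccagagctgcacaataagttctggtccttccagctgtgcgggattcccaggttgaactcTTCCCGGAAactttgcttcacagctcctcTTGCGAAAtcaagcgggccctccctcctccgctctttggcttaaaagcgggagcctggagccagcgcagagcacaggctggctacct

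The NF-kB motif, GGG and TTTCC with any pair of bases between them, was searched on both strands, as were all motifs. It was held by 3 genes, Serpina3n, Steap4 and Il6, in 3 of the 11 windows, and by 1.63% of all windows. The AP-1 motif TGANTCA was held by Cp and Il6, in 2 of the 11 windows, and by 7.81% of all windows. The STAT motif TTCNNNGAA was held by Steap4, in 1 of the 11 windows, and by 8.30% of all windows. The TATA motif TATAAA was found in C3, Cp and Steap4, in 3 of the 11 windows, and in 13.6% of all windows. It lay before the start in Cp and Steap4 and after it in C3, and its pair of matches in Cp overlapped.

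**Figure D1:**
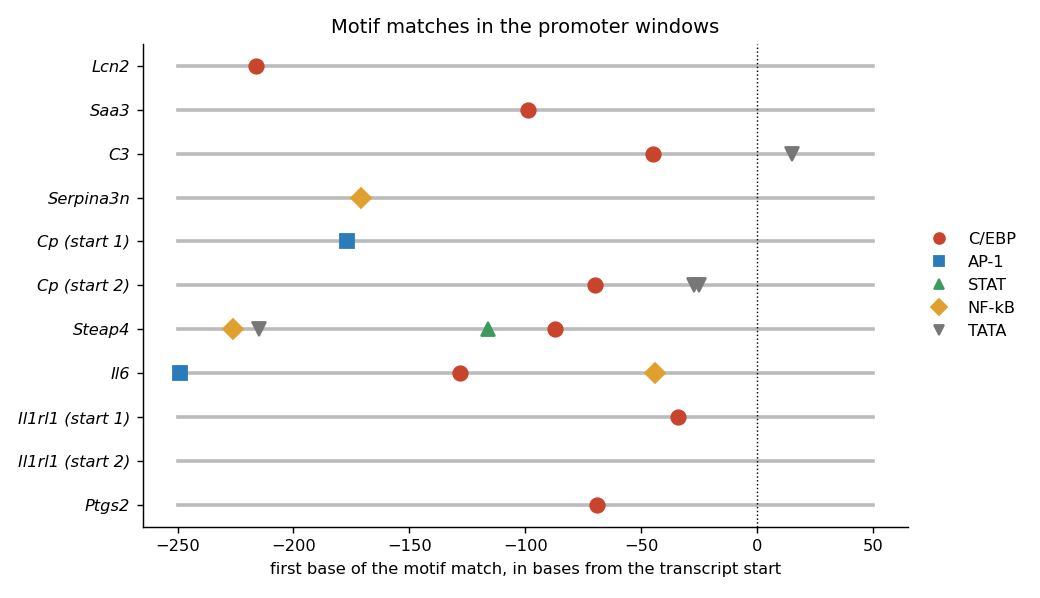
Motif matches in the 11 promoter windows of 9 genes, by the distance of the first base of the match from the transcript start in bases. Each grey line is a window and each symbol a match: C/EBP matches were found in 8 of the 9 genes, between 34 and 216 bases before the start, and none was found in Serpina3n.

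Lcn2 (chr2:32384633-32388252, minus strand, GENCODE vM21 on GRCm38) encodes lipocalin 2, a secreted protein that binds siderophores and so withholds iron from bacteria. It was counted 181, 46 and 29 times in EV libraries 1 to 3, 112, 41 and 29 times in LAP and 30, 7 and 5 times in LIP. These were 5.63, 1.70 and 0.849 CPM in EV, 3.45, 1.47 and 1.07 CPM in LAP, and 1.22, 0.229 and 0.161 CPM in LIP. Libraries 2 and 3 of LIP were lower than all 6 others, while LIP library 1 lay within the range of EV and of LAP. The mean was 0.538 ± 0.595 CPM in LIP against 2.73 ± 2.55 in EV and 2.0 ± 1.27 in LAP (SD, n = 3 each).

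Saa3 (chr7:46711998-46715700, minus strand) encodes serum amyloid A3, the acute-phase apolipoprotein made outside the liver. Its counts were 2847, 928 and 1279 in EV, 3750, 3411 and 1649 in LAP and 3153, 743 and 538 in LIP, that is 88.6, 34.2 and 37.5, then 116, 123 and 61.0, then 129, 24.3 and 17.4 CPM. LIP held both the highest and the 2 lowest of the 9 values, and all 3 groups overlapped. Because Saa3 has close paralogs, some reads may not be told apart between them, and its level is uncertain to that extent.

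C3 (chr17:57203970-57228136, minus strand) encodes the central component of the complement cascade. It was counted 10873, 4609 and 5852 times in EV, 10117, 3249 and 5310 times in LAP and 5481, 1104 and 1962 times in LIP. The levels were 338, 170 and 171 CPM in EV, 312, 117 and 196 CPM in LAP, and 224, 36.2 and 63.4 CPM in LIP. As with Lcn2, LIP libraries 2 and 3 lay below every other library and LIP library 1 did not.

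Cp (chr3:19957054-20009145, plus strand) encodes ceruloplasmin, the copper-carrying ferroxidase of plasma. Its counts were 474, 252 and 165 in EV, 472, 235 and 149 in LAP and 264, 81 and 101 in LIP, or 14.7, 9.30 and 4.83, then 14.6, 8.44 and 5.51, then 10.8, 2.65 and 3.26 CPM. EV and LAP libraries of the same number were close to each other, and LIP libraries 2 and 3 were the lowest of the 9. Exons of Cp share 108 bases with those of Hps3 on the opposite strand, and since the strand setting of the counting was not given, a few of these reads may belong to Hps3, which itself had 5 to 59 counts.

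Hp (chr8:109575128-109579172, minus strand) encodes haptoglobin, which binds free haemoglobin, and Serpina3n (chr12:104406729-104414329, plus strand) encodes a secreted inhibitor of serine proteases. Both had few counts, so that small differences were not detectable at this depth. Hp had 25, 29 and 13 counts in EV, 27, 30 and 11 in LAP and 16, 18 and 4 in LIP, with group means of 0.743 ± 0.346, 0.772 ± 0.340 and 0.457 ± 0.286 CPM (SD, n = 3 each). Serpina3n had 39, 26 and 13 counts in EV, 53, 30 and 11 in LAP and 28, 9 and 23 in LIP, with means of 0.851 ± 0.427, 1.04 ± 0.614 and 0.727 ± 0.424 CPM (SD, n = 3 each). The groups overlapped for both genes. Serpina3n belongs to a cluster of closely related genes whose reads may not be told apart, and its level is uncertain to that extent.

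Steap4 (chr5:7960457-7982213, plus strand) encodes a metalloreductase that reduces iron and copper at membranes and is induced by inflammatory cytokines. Its counts were 1645, 691 and 526 in EV, 1645, 581 and 265 in LAP and 455, 119 and 117 in LIP. These were 51.2, 25.5 and 15.4 CPM in EV, 50.7, 20.9 and 9.80 CPM in LAP, and 18.6, 3.90 and 3.78 CPM in LIP. EV and LAP overlapped over most of their ranges, and LIP libraries 2 and 3 were lower than all others. The mean was 8.75 ± 8.51 CPM in LIP, 30.7 ± 18.4 in EV and 27.1 ± 21.2 in LAP (SD, n = 3 each).

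Il6 (chr5:30013114-30019981, plus strand) encodes interleukin-6, the cytokine that induces acute-phase genes through STAT3. It was counted 516, 349 and 635 times in EV, 850, 934 and 624 times in LAP and 394, 563 and 200 times in LIP, which was 16.1, 12.9 and 18.6, then 26.2, 33.6 and 23.1, then 16.1, 18.4 and 6.46 CPM. Every LAP library was higher than every EV and every LIP library, and LIP overlapped with EV. Group means were 15.8 ± 2.87 CPM in EV, 27.6 ± 5.38 in LAP and 13.7 ± 6.35 in LIP (SD, n = 3 each).

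Il1rl1 (chr1:40429570-40465415, plus strand) encodes ST2, the receptor of interleukin-33, including a soluble decoy form. Its counts were 1664, 1829 and 1439 in EV, 3237, 3012 and 1228 in LAP and 1152, 1035 and 167 in LIP. These were 51.8, 67.5 and 42.2 CPM in EV, 99.8, 108 and 45.4 CPM in LAP, and 47.0, 33.9 and 5.39 CPM in LIP. LAP libraries 1 and 2 were the highest and LIP library 3 was the lowest by far, while LAP library 3 fell among the EV libraries.

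Ptgs2 (chr1:150100031-150108227, plus strand) encodes cyclooxygenase 2, the inducible enzyme that starts prostaglandin synthesis. It was counted 4578, 4856 and 11610 times in EV, 8420, 6028 and 9746 times in LAP and 6435, 6565 and 2342 times in LIP, at 142, 179 and 340, then 260, 217 and 361, then 263, 215 and 75.6 CPM. LIP libraries 1 and 2 stood level with LAP libraries 1 and 2, and LIP library 3 was the lowest of the 9. In contrast to Lcn2, Steap4 and Cp, library 3 was the highest of EV and of LAP.

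**Figure D2:**
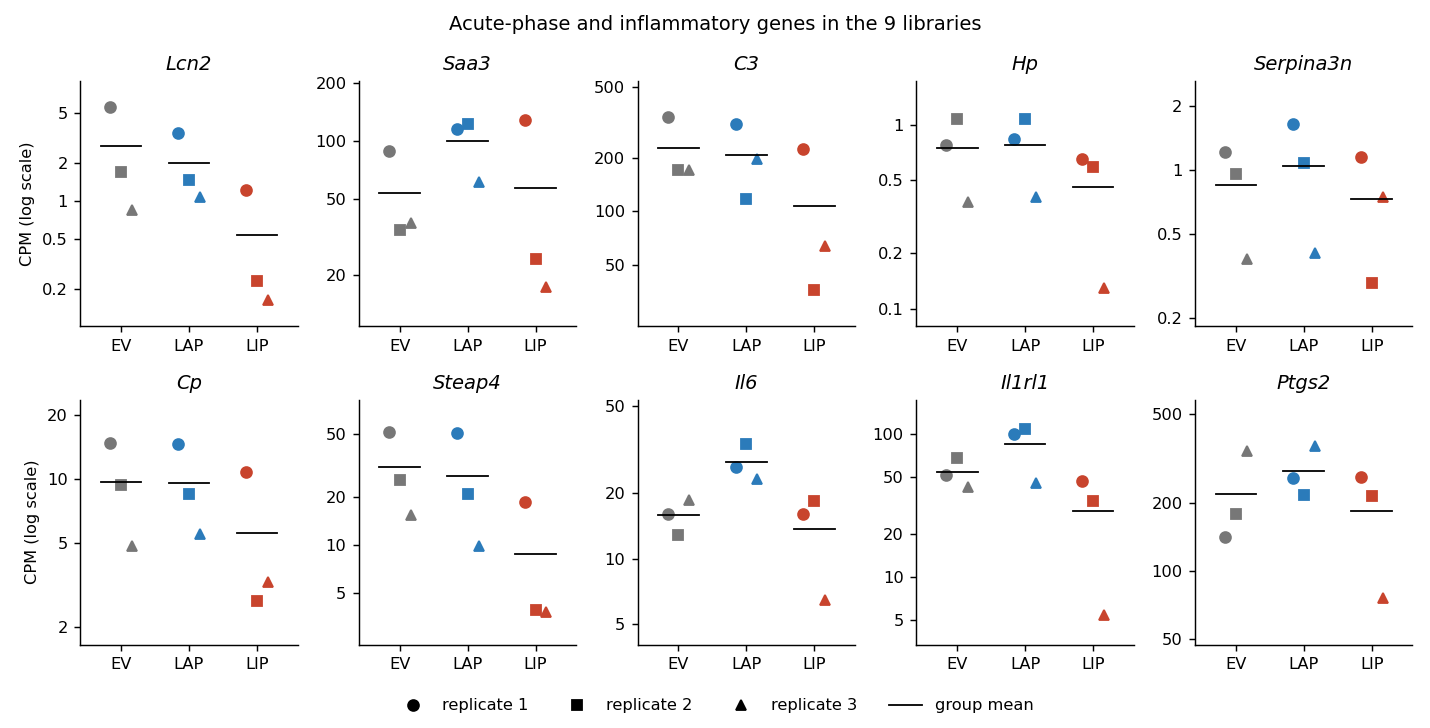
CPM of each gene in each library on a log axis, by group, with circles, squares and triangles for replicates 1, 2 and 3 and a line at the group mean. For Lcn2, C3, Cp and Steap4, LIP libraries 2 and 3 lie below the other 7, and Il6 is higher in each LAP library than in any EV or LIP library.

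Levels were also divided by the length of the longest coding GENCODE transcript, so that genes could be ordered. Ptgs2 was first in each group, at 49.5 ± 23.6 CPM per kb in EV, 62.6 ± 16.6 in LAP and 41.4 ± 21.8 in LIP (SD, n = 3 each). C3 and Saa3 held the next places, at 44.1 ± 18.8 and 24.3 ± 13.9 CPM per kb in EV, and their order was turned in LAP and LIP. In EV they were followed by Il1rl1 with 10.1 ± 2.41, Steap4 with 9.73 ± 5.84 and Il6 with 6.76 ± 1.22 CPM per kb. Lcn2, Cp, Hp and Serpina3n came last in EV, from 2.98 ± 2.79 down to 0.412 ± 0.207 CPM per kb. In EV, neighbours in this order differed by more than either SD for C3 and Saa3, Saa3 and Il1rl1, Il6 and Lcn2, and Cp and Hp, and by less than the larger SD for the other 5 pairs.

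Within groups, libraries of the same number often took the same place. Library 1 was the highest in all 3 groups for 5 of the 10 genes, Lcn2, C3, Serpina3n, Cp and Steap4. This was so for 8.06% of the 10252 genes averaging 50 counts or more, which do not include Hp and Serpina3n. Library 2 or library 3 was the highest in all groups for 0 of the 10, against 6.57% and 12.1% of these genes. The spread within a group reached 7.58 times for Lcn2, 7.41 times for Saa3 and 8.72 times for Il1rl1 between the highest and the lowest LIP library. What the numbers mark is not given in the labels. Over all genes, libraries of the same number deviated together between LIP and LAP and between LAP and EV. Between LIP and EV they did so for numbers 1 and 3 (r = 0.287 and 0.230) but not for number 2 (r = -0.120). There LIP library 1 and EV library 2, of different numbers, also reached r = 0.206. A fit with the number as a block is therefore given beside the fit without it for LIP against LAP and LAP against EV. For LIP against EV it is given as an alternative.

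The comparison of LIP with EV asked what the short isoform changed in cells without C/EBPβ. Lcn2 and Steap4 had the lowest estimates, with a log2 fold change of -2.39 (SE 0.755, adjusted p = 0.234) and of -1.82 (SE 0.565, adjusted p = 0.228) in the edgeR quasi-likelihood fit, adjusted by Benjamini-Hochberg over 18203 genes. As folds, these estimates were 5.24 and 3.53 times lower. They were followed by C3 at -1.07 (SE 0.510, adjusted p = 0.471), Il1rl1 at -0.90 (SE 0.507, adjusted p = 0.564), Cp at -0.80 (SE 0.495, adjusted p = 0.621) and Hp at -0.70 (SE 0.560, adjusted p = 0.706). Ptgs2 at -0.26, Serpina3n at -0.24, Il6 at -0.22 and Saa3 at 0.09 each had an estimate smaller than its SE.

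Without the replicate number, none of the 10 genes passed an adjusted p of 0.05 in LIP against EV, where 0.396% of all genes did, and 0 passed with DESeq2 or edgeR's exact test. Of the 10, 2 were lower at an unadjusted p under 0.05, Lcn2 and Steap4, against 6.75% of all genes. Estimates were below 0 for 9 of the 10, with a median log2 fold change of -0.75 against 0.04 over all genes tested. The LIP and EV libraries overlapped for all 10, while 8.83% of all genes were lower without overlap. Leaving out single libraries changed calls and sizes. Without EV library 1, the estimates for Lcn2 and Steap4 shrank to -1.27 (adjusted p = 0.699) and -1.23 (adjusted p = 0.510), and without LIP library 1 that for Lcn2 was -3.77 (adjusted p = 0.0694). Also without LIP library 1, C3 had a log2 fold change of -2.18 (adjusted p = 0.0231) and Steap4 one of -2.99 (adjusted p = 0.0196) in the same edgeR test. There 246 of all 18094 genes were called lower. With any of the other 5 libraries left out, 0 of the 10 passed. With the number as a block, 3 of the 10 were called lower in that test, Lcn2, C3 and Steap4, although libraries of number 2 did not deviate together. In the block fit 402 of all 18203 genes were called lower. The summed fibroblast markers were lower and the summed epithelial markers higher in each LIP than in each EV library, as given above, although single markers such as Vim, Fn1 and Cdh1 did not follow these sums. The part of these markers in the differences was not tested.

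The comparison of LAP with EV asked what the long isoform changed in the same cells. It shares the EV libraries with the comparison of LIP with EV. Il6 had the clearest estimate, a log2 fold change of 0.79 (SE 0.191, unadjusted p = 0.00102, adjusted p = 0.440) by edgeR's quasi-likelihood test, or 1.73 times higher. Saa3 was at 0.89 (SE 0.323, adjusted p = 0.918), Il1rl1 at 0.64 (SE 0.265, adjusted p = 0.918) and Ptgs2 at 0.33 (SE 0.280, adjusted p = 0.918). Lcn2 at -0.44, Serpina3n at 0.30, Steap4 at -0.18, C3 at -0.13, Hp at 0.07 and Cp at -0.02 had estimates smaller than their SEs.

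None of the 10 genes passed an adjusted p of 0.05 in LAP against EV, where 0.0606% of all genes did, and 0 passed with DESeq2 or edgeR's exact test. Of the 10, 3 were higher at an unadjusted p under 0.05, Saa3, Il6 and Il1rl1, against 1.93% of all genes. Il6 was the 1 gene whose LAP libraries all lay above the EV libraries, as 3.96% of all genes did. Signs were mixed, with 6 estimates above 0 and 4 below it and a median of 0.18 on the log2 scale against 0.02 over all genes.

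Between libraries of the same number, 6 of the 10 genes were higher in LAP at each of the 3 numbers, namely Saa3, Hp, Serpina3n, Il6, Il1rl1 and Ptgs2, against 12.4% of all genes. For Hp the 3 ratios were 1.07, 1.01 and 1.07, on 11 to 30 counts per library, whereas for Saa3 they were 1.31, 3.58 and 1.63. With the number as a block, Saa3 rose by a log2 fold change of 0.96 (SE 0.197, adjusted p = 0.0401) in edgeR's quasi-likelihood test, 1.94 times higher in LAP. It was the 1 gene of the 10 that passed, against 0.132% of all genes called higher in that fit. Il6 missed the threshold there (0.79, SE 0.174, adjusted p = 0.0644). The call for Saa3 was lost in a block fit over all 9 libraries (1.05, adjusted p = 0.279). Without the block, leaving out EV library 1 gave Saa3 an estimate of 1.45 (adjusted p = 0.00130), and leaving out LAP library 3 gave Il1rl1 one of 0.93 (adjusted p = 0.0332), both by the same edgeR test. In these fits 13 of 17960 and 41 of 17844 genes were called higher.

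The direct comparison of LIP with LAP asked whether the isoforms differed from each other. All 10 estimates were below 0, so each gene was lower on average in LIP. Lcn2 had a log2 fold change of -1.93 (SE 0.598, adjusted p = 0.176), Steap4 one of -1.63 (SE 0.535, adjusted p = 0.224), Il1rl1 one of -1.53 (SE 0.469, adjusted p = 0.169) and Il6 one of -0.99 (SE 0.309, adjusted p = 0.180) by edgeR's quasi-likelihood test. These were 3.81, 3.09, 2.89 and 1.99 times lower in LIP. C3 at -0.94, Saa3 at -0.79, Cp at -0.76, Hp at -0.75, Ptgs2 at -0.58 and Serpina3n at -0.52 had SEs of 0.339 to 0.541 and adjusted p of 0.556 to 0.763.

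None of the 10 passed the threshold without the replicate number, where 1.05% of all genes did, and 0 passed with DESeq2 or edgeR's exact test. Of the 10, 4 were lower at an unadjusted p under 0.05, Lcn2, Steap4, Il6 and Il1rl1, against 5.98% of all genes. Il6 was the 1 gene lower in LIP without overlap, as were 6.90% of all genes. The median log2 fold change of the 10 genes was -0.86, against 0.02 over all genes. Single libraries decided several of the calls and sizes in this fit. Without LAP library 1, the estimate for Lcn2 shrank to -1.24 (adjusted p = 0.624) and that for Steap4 to -0.77 (adjusted p = 0.784), and without LIP library 1 they were -3.33 and -2.81. Those for Il1rl1 and Il6 stayed between -2.08 and -1.04 and between -1.28 and -0.65. Without LIP library 1, Lcn2, Saa3, C3 and Steap4 passed, with adjusted p of 0.0186 to 0.0471 by edgeR's quasi-likelihood test. There 128 of all 18044 genes were called lower. Without LAP library 3, Lcn2, Steap4 and Il1rl1 passed, and without LIP library 3, Steap4 and Il1rl1 did. In these fits 344 of 17869 and 310 of 17800 genes were called lower.

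**Figure D3:**
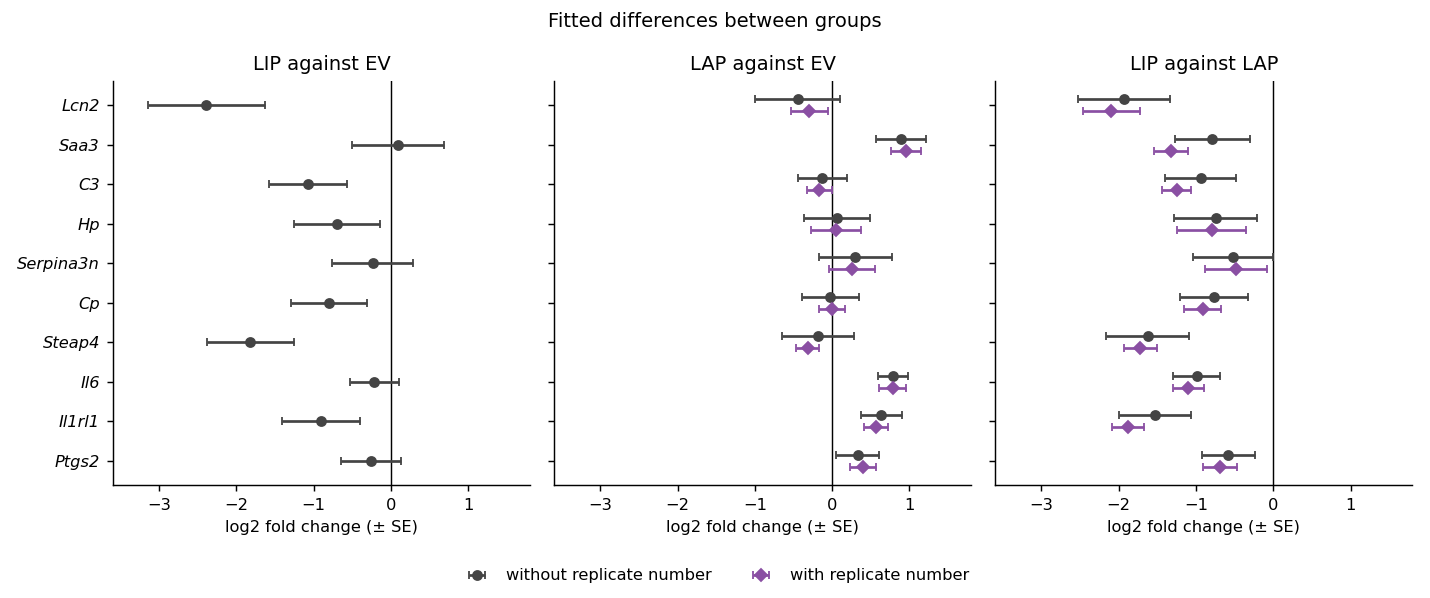
Fitted log2 fold changes with their SE (bars) for each gene in LIP against EV, LAP against EV and LIP against LAP, without (circles) and, in the comparisons that include LAP, with the replicate number in the model (diamonds). In LIP against LAP all 10 estimates lie below 0, and the bars of all 10 genes are shorter with the number in the model.

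At matched numbers the order of the isoforms was the same throughout for most genes. LIP was lower than LAP at each of the 3 numbers for 7 of the 10 genes, Lcn2, C3, Hp, Cp, Steap4, Il6 and Il1rl1, against 18.2% of all genes. Lcn2 was 2.82, 6.42 and 6.64 times lower in LIP at numbers 1 to 3, Steap4 2.73, 5.35 and 2.59 times and Il1rl1 2.12, 3.19 and 8.42 times. For Lcn2 these ratios rested on 5 to 112 counts per library. Saa3 was 1.11 times higher in LIP at number 1 and 5.03 and 3.51 times lower at numbers 2 and 3. Ptgs2 had ratios of 1.01 and 0.993 at numbers 1 and 2 and was 4.77 times lower in LIP at number 3 alone. Serpina3n was lower at numbers 1 and 2 and 1.83 times higher at number 3, on 9 to 53 counts.

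With the number as a block, 8 of the 10 genes were lower in LIP than in LAP at an adjusted p under 0.05, against 4.79% of all 18166 genes called lower in that fit. Il1rl1 was lower with a log2 fold change of -1.88 (SE 0.206, adjusted p = 3.34e-12), Steap4 with one of -1.72 (SE 0.210, adjusted p = 2.14e-10) and Lcn2 with one of -2.10 (SE 0.370, adjusted p = 9.90e-06) in edgeR's quasi-likelihood test. C3 followed at -1.25 (SE 0.188, adjusted p = 1.89e-07), Saa3 at -1.33 (SE 0.219, adjusted p = 2.20e-06) and Il6 at -1.10 (SE 0.202, adjusted p = 2.31e-05). Cp was at -0.91 (SE 0.237, adjusted p = 0.00566) and Ptgs2 at -0.69 (SE 0.218, adjusted p = 0.0345). Hp at -0.80 (SE 0.443, adjusted p = 0.409) and Serpina3n at -0.48 (SE 0.395, adjusted p = 0.695), the genes with the fewest counts beside Lcn2, did not pass.

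These calls were not equally firm. The fit pools spread over genes, so a small SE or p does not mean that the 3 ratios of a gene were alike. For Saa3 the log2 ratios at numbers 1 to 3 were 0.155, -2.33 and -1.81, beside an SE of 0.219. Of the 8 genes, 6 also passed in DESeq2 with the block, where Saa3 (adjusted p = 0.312) and Ptgs2 (adjusted p = 0.751) did not, and 7 in a block fit over all 9 libraries, where Ptgs2 (adjusted p = 0.482) did not. Of all genes, 613 of 18166 were called lower in the first of these fits and 734 of 18725 in the other. The Ptgs2 call rested on LIP library 3, as its ratios show. In the block fit over 9 libraries, Lcn2 and Steap4 passed whichever LAP or LIP library was left out. Without LAP library 2 they were the only 2 of the 10 that passed, with Il1rl1 at an adjusted p of 0.0552 and C3 at 0.0502. There 248 of all 18618 genes were called lower. Lcn2 had only 7 and 5 counts in LIP libraries 2 and 3, near the floor of 3.

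**Figure D4:**
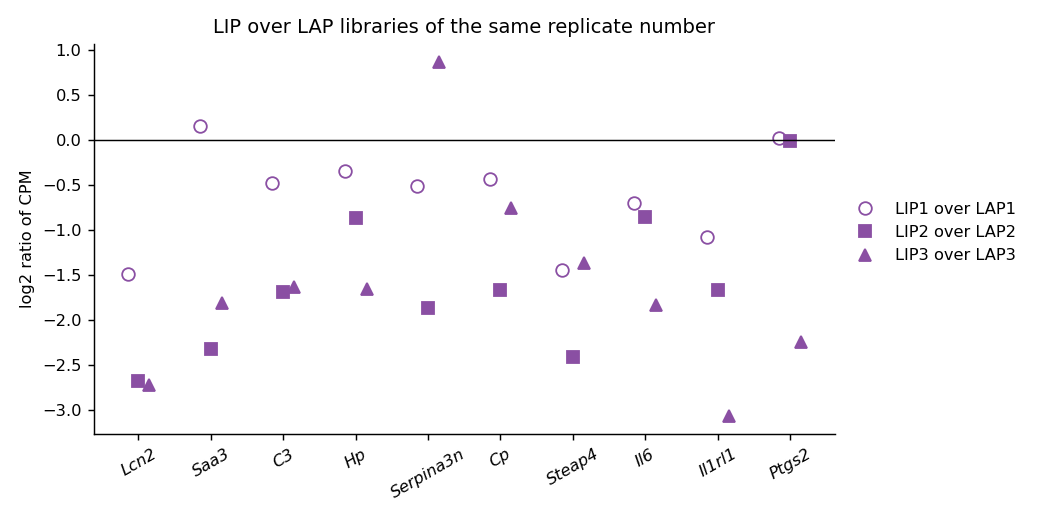
Log2 ratio of CPM in LIP to CPM in LAP for libraries of the same replicate number, with circles, squares and triangles for numbers 1, 2 and 3 and a line at equal levels. All 3 points lie below the line for 7 of the 10 genes, and for Ptgs2 only the point of number 3 is away from it.

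The likeness of the 8 genes that averaged 50 counts or more was described by Pearson's r of log2 CPM over the 9 libraries. Before the logarithm 0.1 was added to each CPM, which matters most at low levels such as those of Lcn2 in LIP. The libraries share their groups and numbers and are therefore not independent. Lcn2 and Steap4 were most alike (r = 0.973), and of all 10252 genes Steap4 was the one nearest to Lcn2. Cp was close to both (r = 0.943 with Lcn2 and 0.956 with Steap4), and C3 had r = 0.882 to 0.894 with these 3. Il6 was most like Il1rl1 (r = 0.861) and Ptgs2 (r = 0.756) among the 8, with r = 0.310 to C3. Ptgs2 was least like Cp (r = 0.154). The genes did not fall into separate sets: Il1rl1 had r = 0.732 with Lcn2 and 0.739 with Steap4, above its 0.658 with Ptgs2, and Saa3 had r = 0.818 with Cp, 0.741 with Il1rl1 and 0.694 with Il6. Lcn2, Steap4, Cp and C3 were genes in which library 1 was the highest of each group, and Il6 and Il1rl1 were highest in LAP libraries 1 and 2.

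Over all genes, the 2 nearest were Steap4 and Tnn for Lcn2 (r = 0.971 for Tnn), U90926 and Timm13 for Saa3 (r = 0.954 and 0.931), and Sema5a and Fzd7 for C3 (r = 0.973 and 0.965). Cp was nearest to Ctps and Hspa5 (r = 0.992 and 0.980), Steap4 to Serpine2 and Tnn (r = 0.985 and 0.977), and Il1rl1 to Rassf3 and Stambpl1 (r = 0.985 for both). Ptgs2 was nearest to Tcf7 and Foxc2 (r = 0.956 and 0.908). Il6 was nearest to Nlrp2 and Rassf6 (r = 0.939 and 0.927). Nlrp2 had 2.6 ± 0.0552 CPM in EV, 10.4 ± 4.19 in LAP and 1.14 ± 0.894 in LIP (SD, n = 3 each), and it rose in LAP against EV by 1.99 on the log2 scale (adjusted p = 0.0146) and fell in LIP against LAP by 3.19 (adjusted p = 0.00710) in edgeR's quasi-likelihood test without the block. With at least 10 counts required in every library, 0 of all genes passed in either comparison.

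Other genes of the same pathways were read from 6 lists, whose counts with the block stand against 4.79% of all genes called lower and 1.72% called higher in LIP against LAP. Calls without the block depended on the gene filter. With edgeR's filterByExpr 1 of all genes was called lower in LIP against LAP, and with at least 10 counts in every library 0 passed in any comparison. Among 29 further acute-phase proteins, 17 or 18 had counts and 0 passed the threshold in any comparison without the block, and 5 averaged 50 counts or more. In LIP against LAP all 5 had estimates below 0, with a median of -0.63, and with the block Mt1, Mt2 and Serpina3h fell. Mt1 and Mt2 encode the metal-binding metallothioneins. Mt2 was at 168, 118 and 104 CPM in LAP and at 104, 56.9 and 15.2 CPM in LIP, a fall of 1.45 on the log2 scale with the block (SE 0.208, adjusted p = 4.54e-08), and Mt1 fell by 0.92 (SE 0.180, adjusted p = 8.23e-05). Serpina3h, a relative of Serpina3n, fell by 0.62 (SE 0.180, adjusted p = 0.0169).

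Of 29 complement genes, 28 were in the table and 0 passed without the block. With it, 4 of 22 tested were lower in LIP than in LAP, against 4.79% of all genes, and 0 were higher. The 4 were C1ra, Masp1, Serping1 and Cr1l, and the median of the 9 genes at that level was -0.19 without the block. Masp1, a protease that starts the lectin pathway upstream of C3, was at 24.1 ± 11.3 CPM in LAP and 8.65 ± 5.47 in LIP (SD, n = 3 each), a fall of 1.56 with the block (SE 0.205, adjusted p = 3.13e-09). Cr1l, which restrains the cleavage of C3 on cell surfaces, fell by 0.66 (SE 0.186, adjusted p = 0.0138). C2, the partner of C4 in the classical pathway, was at 4.32 ± 0.835 CPM in EV and 8.44 ± 3.10 in LAP (SD, n = 3 each), and its difference of 0.91 did not pass with the block (adjusted p = 0.0569).

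Of 32 genes of interleukin-1 and interleukin-6 family signalling, 2 passed without the block, both lower in LIP than in LAP, where 1.05% of all genes passed. Irak3, an inhibitor of interleukin-1 receptor signalling, was at 2.40, 2.12 and 1.48 CPM in LAP and at 0.694, 0.622 and 0.226 CPM in LIP. It fell by 1.95 on the log2 scale (SE 0.437, adjusted p = 0.0372) in edgeR's quasi-likelihood test. Il1rl2, the receptor of interleukin-36 and a relative of Il1rl1, was at 5.52, 6.18 and 2.37 CPM in LAP and at 1.84, 1.41 and 0.420 CPM in LIP and fell by 1.93 (SE 0.455, adjusted p = 0.0469). For both genes no LIP library reached a LAP library, as for 6.90% of all genes. With the block Il1r2, Il1rap and Osmr were called lower too, and Clcf1 rose by 0.61 (SE 0.186, adjusted p = 0.0255). The median of the 17 genes that averaged 50 counts or more was -0.06. Il6st, the shared signalling receptor of the interleukin-6 family, was at 458 ± 110 CPM in LAP and 337 ± 76.6 in LIP (SD, n = 3 each) and did not pass with the block (adjusted p = 0.168).

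Of 17 genes of prostaglandin synthesis and reception, Ptgfr, the receptor of prostaglandin F, passed without the block in LIP against LAP, where 1.05% of all genes did. It was at 2.39 ± 1.73 CPM in LAP and 0.285 ± 0.212 in LIP (SD, n = 3 each), where it had few reads, and fell by 3.07 (SE 0.623, adjusted p = 0.0238). With the block 5 of 16 tested were lower, against 4.79% of all genes, and 0 were higher. The 5 were Ptges, Hpgd, Pla2g4a, Ptger4 and Ptgfr. Pla2g4a releases the arachidonic acid that Ptgs2 uses and fell by 0.61 (SE 0.178, adjusted p = 0.0180), and Ptges, which converts the product of Ptgs2 to prostaglandin E2, fell by 0.84 (SE 0.217, adjusted p = 0.00560). Hpgd degrades prostaglandins. Ptgir, the prostacyclin receptor, was at 2.99 ± 1.55 and 1.71 ± 0.124 CPM (SD, n = 3 each) and did not pass (adjusted p = 0.191).

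Of 17 C/EBP and NF-kB factors, 0 passed without the block, and with it 2 were lower in LIP than in LAP, Cebpd and Ddit3, and 2 higher, the NF-kB inhibitors Nfkbie and Tnfaip3. Cebpd, an inducible C/EBP of the acute phase, was at 171 ± 21.4 CPM in LAP and 100 ± 43.7 in LIP (SD, n = 3 each) and fell by 0.84 (SE 0.179, adjusted p = 0.000390). Ddit3, which encodes the C/EBP-related stress factor CHOP, fell by 0.64 (SE 0.191, adjusted p = 0.0206). Bcl3, at -0.26, did not pass (adjusted p = 0.606). The median of 14 genes of this list was 0.01 in LIP against LAP.

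Of 22 genes of iron and copper handling, Hephl1, a ferroxidase related to Cp, passed without the block in LIP against EV, where 0.396% of all genes did. Hephl1 was at 2.96, 2.58 and 2.75 CPM in EV, 1.20, 0.719 and 1.41 CPM in LAP and 0.245, 0.328 and 0.452 CPM in LIP, 3 levels without overlap. In LIP it had few reads, and 8.83% of all genes were lower in LIP than in EV without overlap. It fell by 2.99 on the log2 scale in LIP against EV (SE 0.345, adjusted p = 0.00340) and, with the block, by 1.34 in LAP against EV (SE 0.245, adjusted p = 0.0166) and by 1.64 in LIP against LAP (SE 0.424, adjusted p = 0.00540), all by edgeR's quasi-likelihood test. With the block Steap1 and Tfrc were also lower in LIP than in LAP. The iron exporter Slc40a1 rose by 1.55 (SE 0.261, adjusted p = 3.25e-06) and Lrp2, a receptor that takes up lipocalins, by 0.63 (SE 0.176, adjusted p = 0.0113). Steap2, a relative of Steap4, was at 5.53 ± 0.905 CPM in LAP and 4.35 ± 0.698 in LIP (SD, n = 3 each) and did not pass (adjusted p = 0.631).

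Beside these lists, the 8 examined genes that averaged 50 counts or more had a median of -0.97 in LIP against LAP without the block, and all genes of that level one of 0.00. The lists and the 10 genes were described by these counts and medians alone and were not tested as sets.

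**Figure D5:**
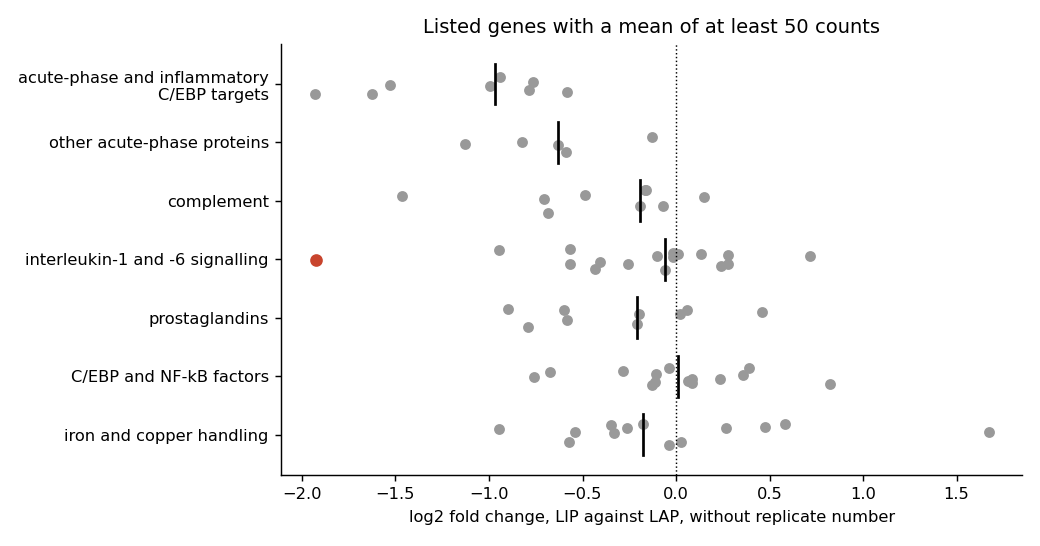
Log2 fold changes in LIP against LAP, without the replicate number, of the genes that averaged 50 counts or more in each list, with a bar at the median and the gene past the threshold, Il1rl2, in red. The 8 points of the examined genes all lie below 0, with a median of -0.97, and the medians of the other lists lie between -0.63 and 0.01.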

How the data were processed

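RNA was sequenced as single-end 50-base reads from TruSeq libraries. Per the labels and methods, the authors used bcl2fastq 1.8.3, TopHat 1.4.1 and HTSeq 0.5.4 and deposited raw counts per gene, and the build is given as GRCh38/mm10. The strand setting is not given in the sources used here. All 9 columns were assigned by their labels and 0 were unused. Each comparison used its 6 libraries and all genes with at least 1 count. Counts were scaled by TMM and tested with edgeR 4.0.16 (R 4.3.3), by the quasi-likelihood test without covariates and with Benjamini-Hochberg adjustment and a threshold of 0.05. Its SEs are the size of the estimate over the square root of the F statistic, whose dispersions are pooled in part over genes. The study instead required an adjusted p under 0.05 in both edgeR and DESeq and does not name the edgeR test.

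The genes and lists were chosen with earlier results of these data known. All 10 genes are named, as are listed genes past the threshold, up to 3 per list with the smallest p in LIP against EV and a mean of at least 50 counts, and the 2 nearest genes by Pearson's r. Others were named after their values were seen, to spell out a count.

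The labels number the libraries 1 to 3 in each group without saying what a number marks. Over 11535 genes, deviations from the group means correlated at r = 0.555, 0.412 and 0.464 between LIP and LAP libraries of numbers 1, 2 and 3, and at 0.522, 0.209 and 0.512 between LAP and EV. Between LIP and EV they correlated at 0.287, -0.120 and 0.230, so number 2 did not pair and the block was kept as an alternative for that comparison. Libraries of different numbers correlated at -0.319 to -0.143 between LIP and LAP and at -0.447 to 0.0052 between LAP and EV. Between LIP and EV the range was -0.380 to 0.206. Alternatives were DESeq2 1.42.0, the exact test, robust estimation, other scalings and filters, all 9 libraries in one model, the block and each library left out. DESeq2 and the 9-library model with the block were added after the data were seen. Promoters came from RefSeq (GRCm38.p6), and lengths from GENCODE vM21. Figures used matplotlib 3.10.9 under Python 3.11.15.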

Additional observations from a re-analysis of the deposited data

Results flagged for a closer look

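For 8 of the 10 genes, LIP and LAP differed by the direct test of LIP against LAP with the replicate number in the model (edgeR's quasi-likelihood test, adjusted p under 0.05), and for none of them without the number. In the fit with the number, 4.79% of all 18166 genes were called lower and 1.72% higher. All 8 were lower in LIP, with log2 fold changes of -2.10 for Lcn2, -1.88 for Il1rl1, -1.72 for Steap4, -1.33 for Saa3, -1.25 for C3, -1.10 for Il6, -0.91 for Cp and -0.69 for Ptgs2. LIP was lower at each of the 3 numbers for Lcn2, Il1rl1, Steap4, C3, Il6 and Cp, at 2 of 3 for Saa3, and for Ptgs2 by more than a few percent at number 3 only. Of all genes, 18.2% were lower in LIP at each of the 3 numbers.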

How the results depend on the processing

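In LIP against EV, 72 genes passed the threshold, and 13 at 0.01, 321 with DESeq2, 301 with the exact test, 29 with robust estimation, 36 with total counts only, 4 with filterByExpr, 0 with at least 10 counts in every library (816 lower and 497 higher by unadjusted p) and 157 with all 9 libraries. In LAP against EV, 11 passed, and 6 at 0.01, 26 with DESeq2, 33 with the exact test, 3 with filterByExpr, 0 with at least 10 counts (131 and 128 by unadjusted p) and 5 with all 9 libraries. In LIP against LAP, 190 passed, and 36 at 0.01, 55 with robust estimation, 113 with total counts only, 2 with filterByExpr and 0 with at least 10 counts (675 and 406 by unadjusted p), where 7 of the 10 genes were tested. The examined genes past the threshold stayed at 0 in each of these. With the replicate block, 467 genes and 3 of the 10 (Lcn2, C3 and Steap4) passed in LIP against EV, where libraries of number 2 did not pair, 54 and 1 in LAP against EV, and 1183 and 8 in LIP against LAP. With the block these numbers were 493 and 3, 45 and 1, and 789 and 6 in DESeq2, and 892 and 5, 25 and 0, and 963 and 7 with all 9 libraries. Leaving out a library gave 22 to 367 genes and 0 to 2 of the 10 in LIP against EV, 6 to 62 and 0 to 1 in LAP against EV, and 7 to 448 and 0 to 4 in LIP against LAP, and with all 9 libraries and the block 413 to 1299 and 3 to 6, 4 to 108 and 0 to 3, and 282 to 1274 and 2 to 7. With the block, Saa3 in LIP against EV turned to a log2 fold change of -0.35 (-0.34 in DESeq2, -0.27 with all 9 libraries), and Cp in LAP against EV to 0.0015 in DESeq2. Leaving out a library also turned signs of estimates that had not passed without the block. The ranges given here span the fits without the block and those over all 9 libraries with it. In LIP against EV they were -1.35 to 0.67 for Saa3, -0.74 to 0.35 for Serpina3n, -0.69 to 0.48 for Ptgs2 and -0.66 to 0.13 for Il6. In LAP against EV they were -1.12 to 0.66 for Lcn2, -0.55 to 0.28 for C3, -0.48 to 0.42 for Cp, -1.02 to 0.39 for Steap4, -0.26 to 0.40 for Hp, -0.00034 to 0.96 for Ptgs2 and -0.20 to 0.67 for Serpina3n. In LIP against LAP they were -1.0 to 0.094 for Serpina3n and -1.08 to 0.081 for Ptgs2, which had passed in the block fit of its 6 libraries. The cause of these changes was not tested. Hp, Serpina3n and Lcn2 had at most 181 counts, and small differences in them were not detectable at this depth. An estimate larger than its SE could also miss the threshold, as that for Lcn2 did in LIP against EV (-2.39, SE 0.755).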
